A study of Homo sapiens with 4 samples.

Results

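The genes examined encode 2 families of chromatin regulators that oppose Polycomb repression, the SWI/SNF nucleosome remodellers and the COMPASS histone methyltransferases. They were chosen by symbol from a fixed list of 42 genes, 25 of SWI/SNF and 17 of COMPASS or the related enzyme ASH1L. All 42 were found among the 35606 genes of the count table, each in 1 row. RNA was taken from K562, an established cell line from a human chronic myelogenous leukaemia that keeps erythroid traits. Cells expressing JAZF1-SUZ12 were compared with mock cells, with 2 poly(A)-selected libraries per group. JAZF1-SUZ12 is a fusion protein found in endometrial stromal sarcoma, in which a piece of JAZF1 is joined to SUZ12, itself a core component of Polycomb repressive complex 2 (PRC2). All 4 libraries share the K562 background. The vector and promoter that drive the fusion, the time of its expression, and whether the 2 libraries of a group are separate cultures are not given in the sources used here, so p-values measure only the spread between these libraries.

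SWI/SNF complexes, called BAF complexes in mammals, use the energy of ATP to slide or evict nucleosomes. They share an ATPase and a core and exist in 3 forms, canonical BAF (cBAF), polybromo BAF (PBAF) and non-canonical BAF (ncBAF), which are told apart by their accessory subunits. COMPASS complexes place methyl groups on lysine 4 of histone H3, a mark of active promoters and enhancers. Each is built from 1 of 6 catalytic subunits on the shared WRAD core of WDR5, RBBP5, ASH2L and DPY30. Both families are known as antagonists of Polycomb: BAF complexes can evict Polycomb proteins, and the mark left by COMPASS enzymes hinders PRC2.

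The libraries held between 17260936 and 24423028 counts, and between 14121 and 15328 genes with at least 10 counts. The source label names uterus, so defining markers were examined. The summed level of 10 erythroid markers was 11626 and 11270 counts per 1000000 (CPM) in mock and 13405 and 13269 CPM in JAZF1-SUZ12 libraries. Of the 10, 5 were called higher by edgeR, against 13.3% of all genes tested and 9.31% of those averaging 500 counts or more. Among these 5 markers were HBZ (log2 fold change 0.86) and ALAS2 (0.68), and the other 5 markers were not called. The part of this shift in the results below was not tested. In contrast, 8 endometrial stromal markers summed to between 7.28 and 10.1 CPM and LUM had 0 counts in every library. PGR had the most counts of the 8, with 99 and 93 in mock and 117 and 147 in JAZF1-SUZ12 libraries, and was not called. JAZF1 had 12 and 27 counts in mock against 574 and 731 with the fusion, and SUZ12 2781 and 2798 against 4754 and 6582, the direction that the labels give. Across the transcriptome, edgeR's quasi-likelihood test called 3643 of 14750 genes at a Benjamini-Hochberg adjusted p under 0.05.

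Promoters of 5 of the 16 called genes are shown because CpG-rich promoters are where COMPASS and Polycomb proteins are both known to bind, COMPASS in part through subunits that recognise unmethylated CpG. RefSeq promoter sequence (GRCh38.p14) was matched by symbol for 33 of the 42 genes, with 52 annotated starts. The 250 bases before each start held a median of 23 CG dinucleotides, against 11 over the 35116 starts of all genes. The windows below belong to the 3 genes that rose, SMARCD3, DPF3 and PHF10, and to 2 of the 13 that fell, ARID1A and SS18, chosen as examples after their values were seen. Windows with more than 30 annotated exonic bases were left out. Windows of SMARCA2, SMARCA4, WDR5 and BCL7B also met this limit and are not printed; they held between 0 and 39 CG. Each is written 5′ to 3′ and ends at the base before the start, with every CG in capitals.
SMARCD3, chr7:151276735-151276984, minus strand: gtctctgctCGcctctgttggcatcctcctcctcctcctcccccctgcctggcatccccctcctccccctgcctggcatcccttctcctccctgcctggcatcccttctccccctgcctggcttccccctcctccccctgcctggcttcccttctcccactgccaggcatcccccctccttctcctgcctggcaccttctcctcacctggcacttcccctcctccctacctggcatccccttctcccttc
DPF3, chr14:72894102-72894351, minus strand: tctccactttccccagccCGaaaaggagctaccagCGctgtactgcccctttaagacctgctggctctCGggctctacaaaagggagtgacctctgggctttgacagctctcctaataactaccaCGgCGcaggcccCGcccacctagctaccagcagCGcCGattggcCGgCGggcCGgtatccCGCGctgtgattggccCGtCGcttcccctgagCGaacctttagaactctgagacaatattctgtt
DPF3, chr14:72892650-72892899, minus strand: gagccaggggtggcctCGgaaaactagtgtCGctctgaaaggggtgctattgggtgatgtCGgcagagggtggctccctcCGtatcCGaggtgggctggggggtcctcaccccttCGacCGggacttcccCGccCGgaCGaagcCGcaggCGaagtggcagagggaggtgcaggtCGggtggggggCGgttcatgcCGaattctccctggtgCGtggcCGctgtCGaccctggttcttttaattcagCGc
PHF10, chr6:169724501-169724750, minus strand: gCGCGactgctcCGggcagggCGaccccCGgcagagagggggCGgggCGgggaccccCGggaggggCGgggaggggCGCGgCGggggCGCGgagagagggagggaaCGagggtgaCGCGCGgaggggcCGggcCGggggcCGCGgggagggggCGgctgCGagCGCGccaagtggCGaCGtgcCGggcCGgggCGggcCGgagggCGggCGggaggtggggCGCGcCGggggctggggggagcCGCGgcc
ARID1A, chr1:26695765-26696014, plus strand: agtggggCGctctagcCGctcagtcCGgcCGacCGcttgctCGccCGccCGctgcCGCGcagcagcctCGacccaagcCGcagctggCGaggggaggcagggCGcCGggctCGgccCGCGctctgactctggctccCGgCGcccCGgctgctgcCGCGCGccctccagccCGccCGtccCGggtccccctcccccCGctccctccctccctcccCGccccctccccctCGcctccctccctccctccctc
SS18, chr18:26091220-26091469, minus strand: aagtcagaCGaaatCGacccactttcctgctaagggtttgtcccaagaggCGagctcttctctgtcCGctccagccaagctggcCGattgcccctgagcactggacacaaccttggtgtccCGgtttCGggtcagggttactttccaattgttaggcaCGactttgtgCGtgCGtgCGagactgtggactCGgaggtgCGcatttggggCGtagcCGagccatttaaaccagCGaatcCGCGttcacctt

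PHF10 and ARID1A had dense CpG, with 39 and 30 CG in 250 bases, a number reached by 2.65% and 12.4% of all windows. The DPF3 windows held 16 and 19 and the SS18 window 18, reached by 34.6% of all windows for the second of DPF3 and by 36.8% for SS18. The SMARCD3 window shown held 1 CG. The other 2 SMARCD3 starts had 21 and 34 CG in windows that lie in annotated exons. The gene-level counts do not tell which start was used. Among 3 further motifs searched on both strands, AGATAA, a site of GATA factors, was found in windows of SMARCA2 and SMARCD3, in 3.85% of the windows of the list against 9.17% of all windows. CCGGAAG, a site of ETS factors, was found for BRD9, SMARCA2 and WDR5 (5.77% against 8.52%), and TATAAA for SMARCA2 alone (1.92% against 10.7%). A match is a description of letters and not a bound site.

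Of the 42 genes, 41 passed the count filter; 3 of them were called higher and 13 lower in JAZF1-SUZ12 cells. The 3 called higher are 7.32% of those tested, against 13.3% of all genes tested. The 13 called lower are 31.7%, against 11.4% of all genes. Decreases were more often called among abundant genes, to which nearly all of these belong. Among genes with a mean of at least 500 counts, a minimum chosen after the data were seen, 20.9% of 7318 were called lower. Of the 38 such genes of the list, 34.2% were called lower. Called higher were 9.31% of the 7318 and 2.63% of the 38. The median log2 fold change of the 41 genes was -0.12. It was 0.0032 over all genes tested. Over those with at least 500 counts it was -0.060, and over the 38 of the list -0.13. Below 0 were 34 of the 41, against 7296 of all 14750 genes tested. Among abundant genes, 34 of the 38 of the list and 4813 of the 7318 were below 0. Decreases were small: the 13 log2 fold changes lay between -0.30 and -0.13. The number called lower was 8 with DESeq2, which called 7.13% of all genes lower and 9.19% higher, and 5 without mock replicate 2.

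**Figure D1:**
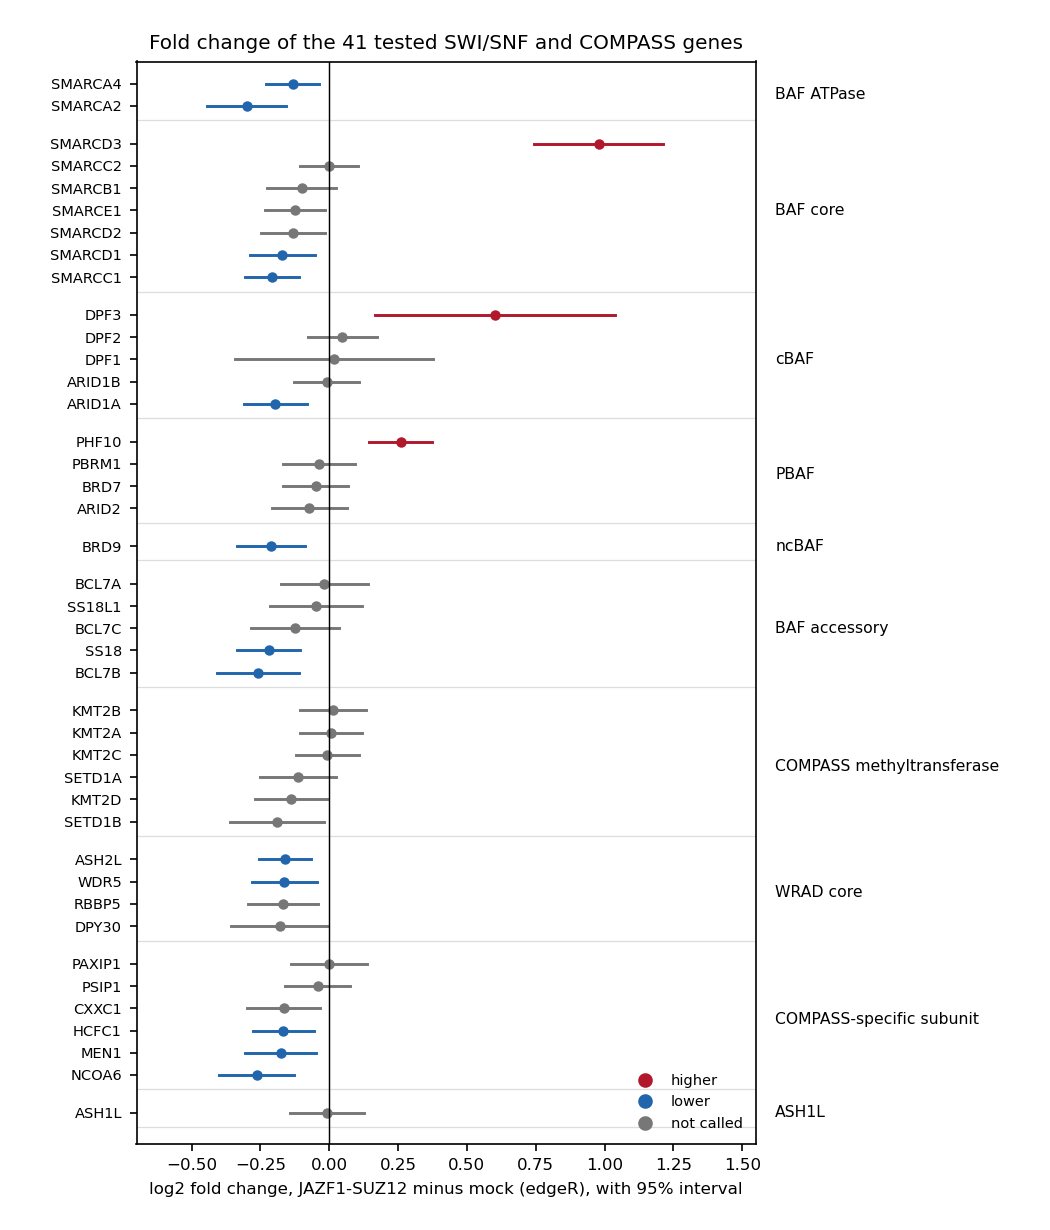
Log2 fold change (JAZF1-SUZ12 minus mock) for the 41 tested genes (points, edgeR) with 95% intervals (lines), grouped by role and coloured by call at an adjusted p under 0.05. SMARCD3, DPF3 and PHF10 lie to the right of 0, and the 13 genes called lower lie between -0.30 and -0.13.

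**Figure D2:**
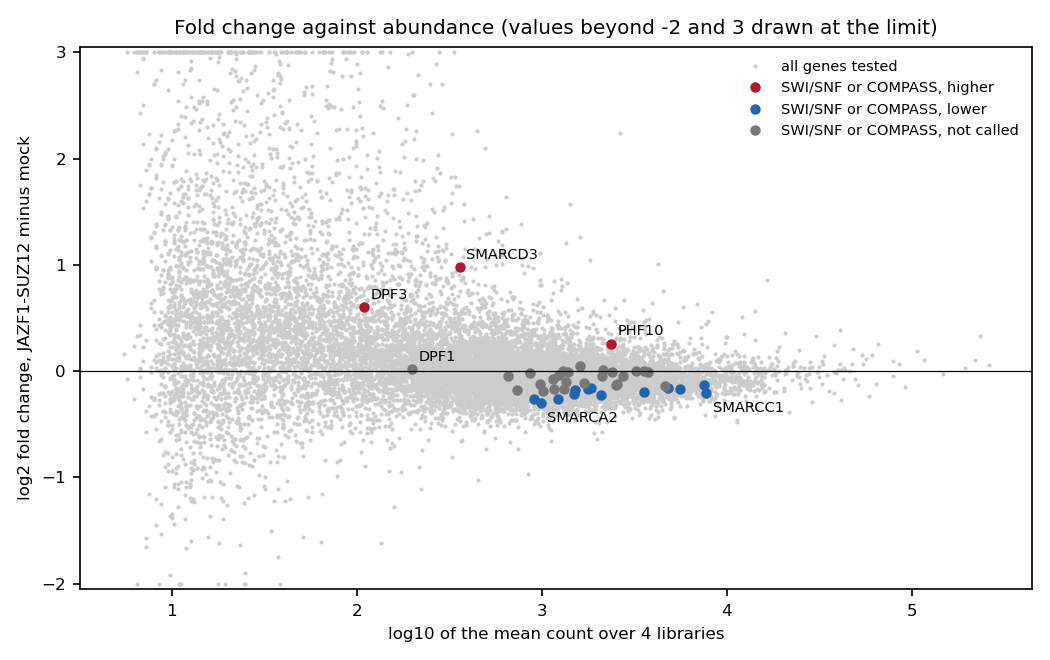
Log2 fold change (vertical axis) against log10 of the mean count over the 4 libraries (horizontal axis) for all 14750 genes tested, with the 41 SWI/SNF and COMPASS genes coloured by call. SMARCD3 and DPF3 are among the least abundant genes of the list, and most of the rest form a band at or just below 0.

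The ATPases, the motors of the complexes, were both lower. SMARCA2 (BRM; ENSG00000080503; GRCh38 chromosome 9, 1980290 to 2193624, plus strand) was at 53.2 and 50.6 CPM in mock and at 43.7 and 41.97 CPM in JAZF1-SUZ12 libraries. The groups did not overlap, as for 27.2% of all genes tested in this direction. It fell by 0.30 on the log2 scale (standard error 0.07; edgeR, adjusted p = 0.00406). SMARCA4 (BRG1; chromosome 19, 10960825 to 11079426, plus strand) was at 368 and 383 CPM in mock and at 352 and 343 CPM in JAZF1-SUZ12 libraries, again without overlap. It fell by 0.13 (standard error 0.05; edgeR, adjusted p = 0.0410). The SMARCA4 call was lost without JAZF1-SUZ12 replicate 2 (edgeR, adjusted p = 0.177) and without mock replicate 2 (0.180). It was also lost with total counts only (0.0511) and with a minimum mean of 50 counts (0.0588), within a range of 3.74e-05 to 0.0588 over 9 alternatives. Per kilobase of the longest transcript, SMARCA4 was at 64.8 ± 1.83 CPM and SMARCA2 at 7.35 ± 0.260 CPM in mock (SD, n = 2 each). SMARCA2 made up 10.6% and 9.77% of the summed level of the pair in mock and 9.23% and 9.12% in JAZF1-SUZ12 libraries.

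Among the core subunits, the SMARCD family changed its balance. Its members (BAF60a, b and c) link the remodeller to transcription factors, and SMARCD3, the form known for its role in heart and skeletal muscle, was the gene of the list that changed most. SMARCD3 (ENSG00000082014; chromosome 7, 151238764 to 151277896, minus strand) had 224 and 256 counts in mock and 377 and 588 in JAZF1-SUZ12 libraries, or 10.96 and 12.02 CPM against 21.8 and 24.1 CPM. Both JAZF1-SUZ12 libraries were far above both mock libraries. It rose by 0.98 on the log2 scale (standard error 0.11), a 97.1% increase (edgeR, adjusted p = 9.61e-06), and it was called in all 9 alternatives and with each library left out. Its exons share 64 bases with CHPF2 on the opposite strand, which moved the other way (log2 fold change -0.27; edgeR, adjusted p = 0.00734). They also share 574 bases with AC021097.1 and 78 with AC005486.1 on the opposite strand, for which no counts were given.

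SMARCD1 was at 88.0 and 90.2 CPM in mock and at 78.3 and 82.3 CPM in JAZF1-SUZ12 libraries, which did not overlap. It fell by 0.17 (standard error 0.06; edgeR, adjusted p = 0.0378). SMARCD2, the most abundant of the 3, was at 122 and 128 CPM against 118 and 114 CPM and was not called (log2 fold change -0.13, 95% interval -0.25 to -0.02; edgeR, adjusted p = 0.0898), although its groups did not overlap either. It was called in 1 of 9 alternatives (0.0463 to 0.197) and without JAZF1-SUZ12 replicate 1 (edgeR, adjusted p = 0.0381). On the level per kilobase, the share of SMARCD3 in the family was 6.18% and 6.48% in mock and 12.3% and 13.4% in JAZF1-SUZ12 libraries. The summed level of the family was 75.1 CPM per kilobase in mock and 74.1 in JAZF1-SUZ12 cells. With 2 libraries per group, an exact permutation test of such a share cannot give a two-sided p below 0.333, so shares are given without a test. The SMARCD1 call was lost when any 1 of the 4 libraries was left out (edgeR, adjusted p = 0.113 and 0.0586 without JAZF1-SUZ12 replicates 1 and 2, 0.0682 and 0.133 without mock replicates 1 and 2). It was also lost with DESeq2 (0.119), total counts (0.0693) and a minimum mean of 50 counts (0.0609), the lowest of 9 alternatives being 0.0112.

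SMARCC1 (BAF155; chromosome 3, 47585272 to 47782106), a scaffold around which the complex assembles, was at 391 and 403 CPM in mock and at 357 and 341 CPM in JAZF1-SUZ12 libraries. The groups stood clearly apart. It fell by 0.21 on the log2 scale (standard error 0.05; edgeR, adjusted p = 0.00344). Its paralogue SMARCC2 (BAF170) was at 151 and 157 CPM against 155 and 158 CPM, with overlap, and had a 95% interval of -0.10 to 0.10. SMARCC2 shares 514 exonic bases with MYL6 on the opposite strand, whose log2 fold change was -0.10 (edgeR, adjusted p = 0.116). Per kilobase, SMARCC1 made up 63.4% and 63.3% of the pair in mock and 60.7% and 59.1% in JAZF1-SUZ12 libraries. Neither SMARCB1 (SNF5), the core subunit lost in rhabdoid tumours, nor SMARCE1 (BAF57) was called, although both were lower in both JAZF1-SUZ12 libraries than in either mock library. Their log2 fold changes were -0.10 and -0.12 (edgeR, adjusted p = 0.244 and 0.0930). SMARCB1 shares 2923 exonic bases with DERL3 on the opposite strand, and SMARCE1 shares 3697 with AC073508.2 on the same strand. Neither of these neighbours was called (edgeR, adjusted p = 0.541 and 0.904).

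**Figure D3:**
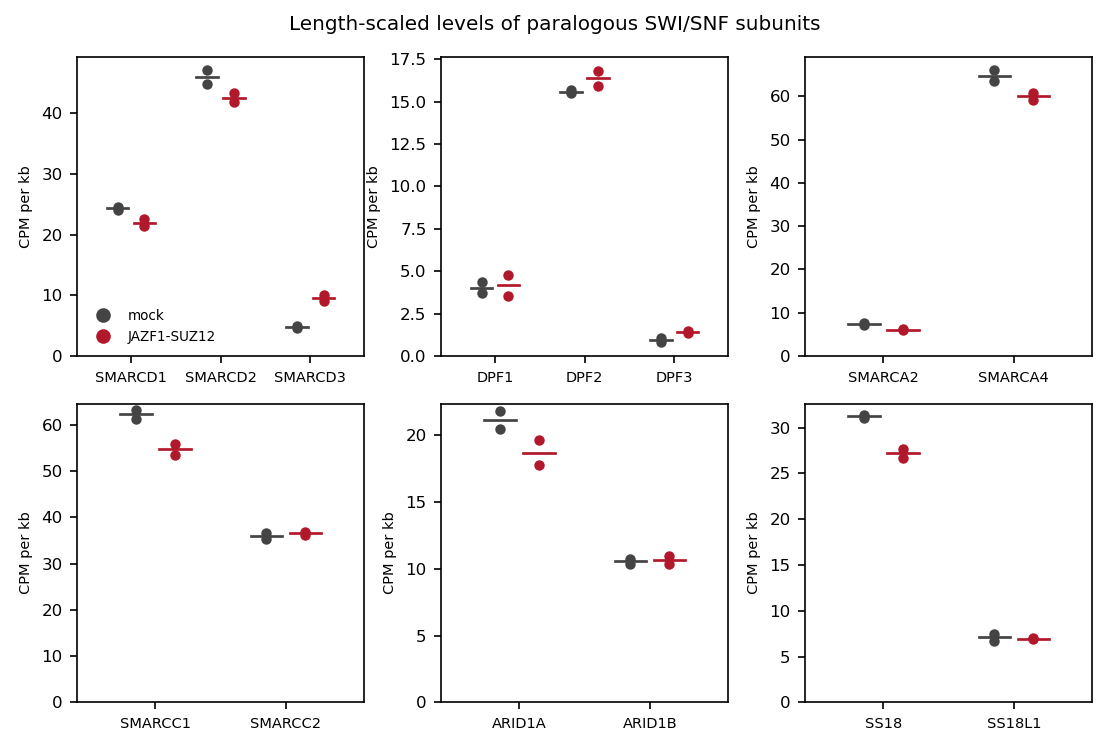
CPM per kilobase of the longest transcript (vertical axis, from 0, scaled for each panel) of paralogous SWI/SNF subunits, with a point for each library and a bar at the mean of the 2 libraries of a group. SMARCD3 rose from 4.76 to 9.51 CPM per kilobase, whereas SMARCC1, ARID1A and SS18 lay lower in JAZF1-SUZ12 libraries beside paralogues whose libraries overlapped.

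The subunits that define canonical BAF are the ARID1 proteins, large subunits through which the ATPase joins the core, and the DPF proteins, which carry histone-reading PHD fingers. ARID1A (chromosome 1, 26693236 to 26782110), often mutated in endometrial and ovarian cancers, was at 175 and 187 CPM in mock and at 153 and 168 CPM in JAZF1-SUZ12 libraries, without overlap. It fell by 0.20 (standard error 0.05; edgeR, adjusted p = 0.0149), but was not called without JAZF1-SUZ12 replicate 1 (0.0552) or without mock replicate 2 (0.0932). ARID1B was at 116 and 112 CPM against 118 and 112 CPM, with a 95% interval of -0.13 to 0.11.

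DPF3 (BAF45c; chromosome 14, 72619296 to 72894116, minus strand), which like SMARCD3 is known from heart and muscle development, had 75 and 99 counts in mock and 116 and 150 in JAZF1-SUZ12 libraries, or 3.67 and 4.65 CPM against 6.72 and 6.14 CPM. The groups did not overlap, as for 33.8% of all genes tested in this direction, but the mock libraries were spread. It rose by 0.60 on the log2 scale (standard error 0.21; edgeR, adjusted p = 0.0424). The call was lost with DESeq2 (0.159, within 0.0277 to 0.159 over 9 alternatives), without JAZF1-SUZ12 replicate 1 or 2 (edgeR, 0.133 and 0.0590) and without mock replicate 1 (0.216). DPF2, the widely expressed member, was at 75.0 and 75.9 CPM in mock and at 81.5 and 77.1 CPM in JAZF1-SUZ12 libraries, without overlap, and was not called (interval -0.08 to 0.17). DPF1, known from neurons, was at 8.71 and 10.3 CPM against 11.3 and 8.39 CPM (interval -0.34 to 0.38). Per kilobase, DPF3 was the least abundant of the 3, at 0.920 ± 0.153 CPM in mock against 15.6 ± 0.124 for DPF2 (SD, n = 2 each).

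Because SMARCD3 and DPF3 are known from muscle, 6 muscle markers were examined beside them. Their summed level was 27.9 and 27.8 CPM in mock and 46.3 and 48.0 CPM in JAZF1-SUZ12 libraries. Of those tested, DES rose by 0.43 on the log2 scale (edgeR, adjusted p = 0.000661), and 13.3% of all genes tested were called higher. MYH6 had 8 and 10 counts in mock and 156 and 251 in JAZF1-SUZ12 libraries. It passed the count filter only through the JAZF1-SUZ12 libraries, so its rise is given without a test. MYOD1 had 0 counts in every library, and ACTC1, TNNT2 and MYH7 had at most 16 in any. Their part in the SMARCD3 and DPF3 results was not tested. In bulk RNA, more RNA in each cell and more cells with the RNA cannot be told apart.

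PBAF is marked by ARID2, PBRM1, BRD7 and PHF10, and it was here that the third increase lay. PHF10 (BAF45a; ENSG00000130024; chromosome 6, 169703905 to 169725566, minus strand), which carries PHD fingers like the DPF proteins, was at 105 and 101 CPM in mock and at 127 and 124 CPM in JAZF1-SUZ12 libraries. The replicates of each group were close and the groups far apart. PHF10 rose by 0.26 on the log2 scale, or 19.7%, (standard error 0.05; edgeR, adjusted p = 0.00224). It was called in all 9 alternatives and with each library left out. PHF10 shares 184 exonic bases with C6orf120 on the opposite strand, whose log2 fold change was -0.19 (edgeR, adjusted p = 0.0508). The other 3 PBAF subunits were not called, with log2 fold changes of -0.07 for ARID2, -0.04 for PBRM1 and -0.05 for BRD7. Their 95% intervals lay between -0.21 and 0.09.

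BRD9, the bromodomain protein of ncBAF and the closest relative of BRD7, was at 76.1 and 76.4 CPM in mock and at 65.6 and 68.0 CPM in JAZF1-SUZ12 libraries, without overlap. It fell by 0.21 (standard error 0.06; edgeR, adjusted p = 0.0134). BRD9 shares 182 exonic bases with TRIP13 on the opposite strand (log2 fold change -0.14; edgeR, adjusted p = 0.106). BRD7 was at 102 and 103 CPM against 102 and 98.7 CPM, with overlap. BRD7 shares 3593 exonic bases with ADCY7 on the opposite strand, whose log2 fold change was -0.28 (edgeR, adjusted p = 0.00221). The BRD9 call was lost with DESeq2 (0.0537, within 0.000835 to 0.0537 over 9 alternatives).

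SS18 (chromosome 18, 26016253 to 26091217), the subunit of cBAF and ncBAF that is fused to SSX in synovial sarcoma, was at 107 and 106 CPM in mock and at 91.1 and 94.5 CPM in JAZF1-SUZ12 libraries. It fell by 0.22 (standard error 0.05; edgeR, adjusted p = 0.00694) and was called in all 9 alternatives and with each library left out. Its paralogue SS18L1 (CREST), known from neurons, was at 33.4 and 30.3 CPM against 30.9 and 31.6 CPM, with overlap. BCL7B was at 45.9 and 48.6 CPM in mock and at 41.1 and 39.2 CPM in JAZF1-SUZ12 libraries, and fell by 0.26 (standard error 0.07; edgeR, adjusted p = 0.0133). BCL7A was at 43.9 and 39.0 CPM against 42.1 and 41.1 CPM, and BCL7C at 46.6 and 50.3 CPM against 47.7 and 42.9 CPM. Both overlapped and were not called. The BCL7B call was lost without JAZF1-SUZ12 replicate 2 (edgeR, 0.114) and mock replicate 2 (0.0665), and with DESeq2 (0.0746, within 0.00331 to 0.0746 over 9 alternatives).

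ACTL6B, the neuron-specific actin-related subunit, had too few counts to be tested, with 5 and 9 in mock and 0 and 10 in JAZF1-SUZ12 libraries. The count of 0 allows a level of up to 0.174 CPM in that library. Of 6 neuronal markers, STMN2 and ELAVL4 had 0 counts in every library and SNAP25 and SYT1 at most 4 in any. RBFOX3 had 3 to 18 counts, and TUBB3 was at 19.2 and 18.9 CPM in mock and at 16.3 and 17.4 CPM in JAZF1-SUZ12 libraries. The paralogue ACTL6A, which is no member of the list, made up 99.7% and 99.5% of the summed level of the pair per kilobase in mock.

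**Figure D4:**
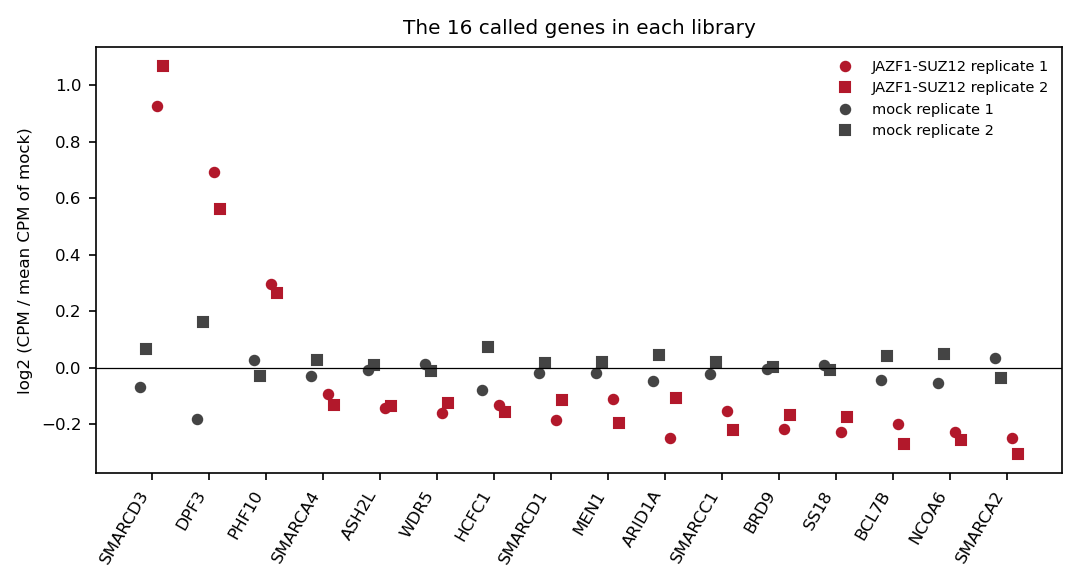
Log2 of the CPM in each library over the mean CPM of the 2 mock libraries (vertical axis) for the 16 called genes, ordered by fold change. Red points are JAZF1-SUZ12 libraries and grey points mock libraries, with a circle for replicate 1 and a square for replicate 2. The groups do not overlap for any of the 16, but these genes were called from the same libraries, so this adds no support. Over all genes tested, 33.8% did not overlap with JAZF1-SUZ12 higher and 27.2% with JAZF1-SUZ12 lower. DPF3 has the widest spread between the mock libraries.

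None of the 6 COMPASS methyltransferases was called in the main edgeR fit, by DESeq2 or by limma-voom. In that edgeR fit 2 of them, KMT2D and SETD1B, had an unadjusted p under 0.05. Some alternative edgeR fits called KMT2D, SETD1A or SETD1B lower, as given below. KMT2A (MLL1), the enzyme rearranged in acute leukaemias, was at 167 and 172 CPM in mock and at 164 and 181 CPM in JAZF1-SUZ12 libraries. Its relative KMT2B was at 98.6 and 103 CPM against 99.5 and 107 CPM. Both pairs of groups overlapped. Their log2 fold changes were 0.0056 and 0.014, with 95% intervals of -0.11 to 0.12 and -0.11 to 0.13. They turned to -0.11 with the offsets for GC content and length. KMT2A shares 5599 exonic bases with AP001267.5 on the same strand, whose log2 fold change was 0.043 (edgeR, adjusted p = 0.878). KMT2C, an enzyme that marks enhancers, was at 178 and 178 CPM against 169 and 190 CPM (interval -0.12 to 0.11). KMT2D, which shares that role, was at 215 and 246 CPM in mock and at 199.5 and 225 CPM in JAZF1-SUZ12 libraries. Both groups were widely spread and overlapped. The log2 fold change of KMT2D was -0.14 (edgeR, adjusted p = 0.119), and it was called lower in 4 of 9 alternatives, with an adjusted p from 1.02e-06 to 0.511. It was also called without JAZF1-SUZ12 replicate 2 (edgeR, adjusted p = 0.00245) and without mock replicate 1 (0.00857).

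SETD1A and SETD1B place most of the trimethyl mark on lysine 4. SETD1A was at 78.8 and 89.5 CPM in mock and at 79.7 and 78.3 CPM in JAZF1-SUZ12 libraries, and SETD1B at 47.3 and 56.0 CPM against 43.6 and 48.2 CPM. In both genes mock replicate 2 was the highest library and the groups overlapped. Their log2 fold changes were -0.11 and -0.19 (edgeR, adjusted p = 0.229 and 0.101), and SETD1B was called in 4 of 9 alternatives (0.000262 to 0.260) and SETD1A in 2 (0.00493 to 0.436). SETD1B was also called without JAZF1-SUZ12 replicate 2 (edgeR, adjusted p = 0.0365) and mock replicate 1 (0.00854), and SETD1A without mock replicate 1 (0.0481). ASH1L, which methylates lysine 36 of histone H3 and so also counters PRC2, was at 63.4 and 68.2 CPM against 63.8 and 69.0 CPM, with an interval of -0.14 to 0.13.

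All 4 WRAD subunits, which activate every COMPASS enzyme, were lower in both JAZF1-SUZ12 libraries than in either mock library, and 2 passed the test. Over all genes tested, 27.2% did not overlap in this direction and 11.4% were called lower, or 20.9% among abundant genes. For DPY30 the nearest libraries of the groups differed only by 34.76 against 34.79 CPM. ASH2L was at 239 and 242 CPM in mock and at 218 and 219 CPM in JAZF1-SUZ12 libraries. It fell by 0.16 (standard error 0.05; edgeR, adjusted p = 0.0160). ASH2L shares 338 exonic bases with STAR on the opposite strand, which also fell (log2 fold change -0.21; edgeR, adjusted p = 0.00673). WDR5, which reads the histone tail and docks the enzymes, was at 93.6 and 92.1 CPM against 83.2 and 85.1 CPM. It fell by 0.16 (standard error 0.06; edgeR, adjusted p = 0.0407). RBBP5 and DPY30 had log2 fold changes of -0.17 and -0.18 (edgeR, adjusted p = 0.0521 and 0.128). DPY30 shares 1385 exonic bases with MEMO1 on the same strand, which fell by 0.22 (edgeR, adjusted p = 0.0387). ASH2L was the most abundant gene of the list per kilobase, at 77.9 ± 0.710 CPM in mock (SD, n = 2). The ASH2L call was lost without mock replicate 2 (edgeR, 0.0601). The WDR5 call was lost without any 1 library (edgeR, 0.0781 and 0.115 without JAZF1-SUZ12 replicates 1 and 2, 0.142 and 0.0765 without mock replicates 1 and 2), and in 3 of 9 alternatives (0.0223 to 0.126).

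Of the 6 subunits found in particular COMPASS complexes, 3 fell, against 11.4% of all genes tested and 20.9% of abundant genes. NCOA6 (chromosome 20, 34689097 to 34825649), the coactivator of the KMT2C and KMT2D complexes, was at 61.3 and 65.9 CPM in mock and at 54.3 and 53.3 CPM in JAZF1-SUZ12 libraries. It fell by 0.26 (standard error 0.06; edgeR, adjusted p = 0.00687). HCFC1, the host cell factor of the SETD1 and KMT2A/B complexes, was at 267 and 297 CPM against 257 and 253 CPM. The mock libraries lay farther apart than the JAZF1-SUZ12 libraries. It fell by 0.17 (standard error 0.05; edgeR, adjusted p = 0.0296). MEN1 (menin), which tethers KMT2A to chromatin, was at 75.5 and 77.5 CPM in mock and at 70.9 and 66.8 CPM in JAZF1-SUZ12 libraries, and fell by 0.18 (standard error 0.06; edgeR, adjusted p = 0.0455).

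The NCOA6 call was lost without mock replicate 2 (edgeR, 0.0521), and the HCFC1 call without JAZF1-SUZ12 replicate 2 (0.0580) and mock replicate 2 (0.278), where its log2 fold change was -0.099. MEN1 was lost without JAZF1-SUZ12 replicate 2 (0.341), mock replicate 1 (0.0679) and mock replicate 2 (0.144), and in 3 of 9 alternatives (0.0105 to 0.152). CXXC1 (CFP1), which brings SETD1 complexes to unmethylated CpG, was at -0.17 on the log2 scale (edgeR, adjusted p = 0.0668), with 57.4 and 60.4 CPM in mock against 53.4 and 53.4 CPM. PSIP1 (LEDGF), the chromatin tether beside menin, and PAXIP1 (PTIP) were at -0.04 and -0.00091, with intervals within -0.16 and 0.14.

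Further subunits of the same complexes, which are no members of the list, were read from the same fit. Of 11, 4 were called lower and 1 higher, 36.4% and 9.09%, against 11.4% and 13.3% of all genes tested and 20.9% and 9.31% of abundant genes. Those lower were ACTB, WDR82, PAGR1 and ACTL6A, with log2 fold changes of -0.27, -0.17, -0.24 and -0.17 (edgeR, adjusted p = 0.000329, 0.0227, 0.0193 and 0.0308). BOD1L1, a partner of SETD1A, rose by 0.20 (edgeR, adjusted p = 0.0150). In the same fit, 2 of 6 PRC2 core genes were called lower and 2 higher (11.4% and 13.3% of all genes tested), 1 of the latter being SUZ12, whose counts include reads of the fusion.

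The authors' deposited table, which gives a DESeq2 comparison of the same groups, called 3 of the 42 genes at an adjusted p under 0.05. It called 4.93% of its 15895 genes with an adjusted p higher and 3.57% lower. The 3 were SMARCD3, at 0.99 in the authors' deposited table (adjusted p = 0.000109), SS18 with -0.32 (0.0125) and SMARCC1 with -0.18 (0.0441). PHF10 and DPF3 were at 0.20 and 0.89 in the authors' deposited table and did not pass (adjusted p = 0.176 and 0.147). SMARCA2 was at -0.60 in the authors' deposited table, further from 0 than the -0.30 found here, but with a standard error of 0.69 (adjusted p = 0.757). The standard error from the counts was 0.07. ARID1A and ARID1B were at -0.097 and -0.19 in the authors' deposited table (adjusted p = 0.569 and 0.225), against -0.20 and -0.0089 here. The fall of ARID1A beside a flat ARID1B was thus not seen there. SMARCC2 and SS18L1, the paralogues of SMARCC1 and SS18, were at -0.11 and 0.072 there (adjusted p = 0.536 and 0.898).

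**Figure D5:**
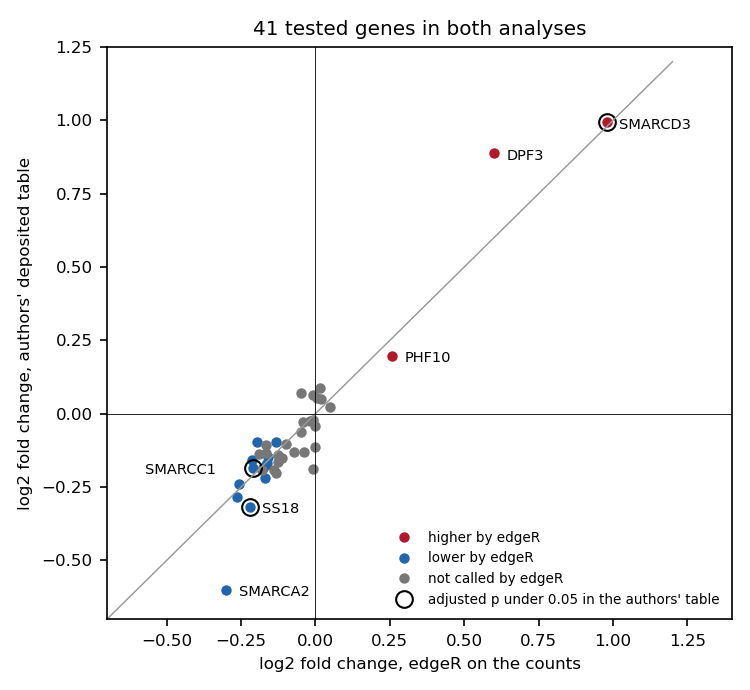
Log2 fold change in the authors' deposited table (vertical axis) against that from edgeR on the counts (horizontal axis) for the 41 tested genes, with the line of equality. SMARCD3 lies on the line and SMARCA2 below it, and rings mark SMARCD3, SS18 and SMARCC1, the 3 genes called in the authors' table.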

How the data were processed

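Poly(A)-selected, directional RNA-seq libraries of K562 cells were deposited as 1 table of estimated counts per gene, which the authors left unnormalized, per the file headers. In each library 29.9% to 33.6% of values were not whole (off by more than 1e-06). The submitters' processing notes list fastp 0.20.1, FastQC 0.11.7, MultiQC 1.5, kallisto 0.46.2, DESeq2 1.30.1 and hg38, with no order. How transcripts were summed to genes, and whether strand was used, is not given in the sources used here, so overlapping genes are less certain. In their comparison table the authors computed a mean normalized signal, a log2 fold change with its standard error, a score (the test statistic) and p-values, per the file headers. Of its 21251 genes, 5356 have no adjusted p-value and were left so.

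Columns were matched to samples through the sample titles. Counts were rounded, because the design had assumed whole counts, filtered with filterByExpr by group, scaled with TMM and tested over all genes with edgeR 4.0.16 (R 4.3.3), the model holding the group alone. Two-sided p-values were Benjamini-Hochberg adjusted across every tested gene and called under 0.05. Standard errors were obtained from the fold change and the F statistic. CPM is the rounded count over the library total, per 1000000. Levels of different genes were compared per kilobase of the longest transcript in GENCODE 29, which gave 35410 genes a length and also the gene positions. Intervals for a count of 0 take 3 counts as the limit and cover counting error only. Promoter sequences are those of RefSeq.

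The genes and lists were chosen with earlier results of these data known, so no list was tested as a set. Values in every library are given for each called gene, each catalytic subunit and each paralogue of a called gene. Other genes of the pathway are named only where called, and not all of those called are named. JAZF1 and SUZ12 are given as a check of the labels. Replicates differed by more than sampling noise, with a chi-square per degree of freedom of 3.86 between the JAZF1-SUZ12 and 3.61 between the mock libraries. In simulated counts for this comparison with 14488 genes tested, edgeR recovered 100 of 100 genes changed 2-fold and 66 of 100 changed 1.25-fold, with 6 false calls. DESeq2 1.42.0 recovered 100 and 51, with 1 false call. The simulation gave every gene the same dispersion and changed only genes with a mean of at least 100 counts. Every decrease called in the list was smaller than 1.25-fold, so the simulation did not measure the recovery of such decreases. The 9 alternatives with all libraries were DESeq2 size factors, total counts, DESeq2, limma-voom (limma 3.58.1), no filter, a mean of at least 50 counts, the replicate number as a block, offsets for GC content and transcript length, and the block with these offsets. The tests with 3 libraries were chosen after the data were seen and take the lone library to vary like the other group.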

Additional observations from a re-analysis of the deposited data

How the results depend on the processing

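The signs of all 16 called genes were the same in the 9 alternatives and with each library left out. Of the 16, 9 were called in all 9 alternatives, and 5 of these (SMARCD3, PHF10, SMARCC1, SMARCA2 and SS18) also with each library left out. The 13 genes called lower became 8 with DESeq2, 21 with the replicate block plus offsets for GC and length (where lower calls over all genes rose from 1688 to 2207), and 4 at an adjusted p under 0.01. The number called lower was 5 to 13 with 1 library left out, 5 of them without mock replicate 2, and the number called higher was 2 to 3. The median of -0.12 was -0.10 with total counts, -0.10 with a minimum mean of 50 counts, -0.15 with the GC and length offsets, -0.15 with the block and offsets, and -0.14 to -0.095 with 1 library left out.

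Over all genes, 3643 calls became 2407 with DESeq2, 1051 of them lower, and 2045 at an adjusted p under 0.01, 1255 higher and 790 lower. With 1 library left out there were 2568 to 3782 calls, 1498 to 1841 higher and 1070 to 1941 lower, the last lowest without JAZF1-SUZ12 replicate 2. The cause of the DESeq2 difference was not tested.

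Among genes that were not called, small fold changes turned sign. With total counts and with the minimum mean of 50 counts, ARID1B was 0.013 and 0.015, ASH1L 0.016 and 0.018, BCL7A 0.0047 and 0.0065, KMT2C 0.016 and 0.017, and SMARCC2 0.022 and 0.024. DPF1 was -0.025 with limma-voom, and KMT2A was -0.0032 with no filter. With the offsets, without and with the block, DPF1 was -0.00029 and -0.0057, KMT2A -0.11 and -0.11, and KMT2B -0.11 and -0.11. With 1 library left out, ASH1L ranged from -0.067 to 0.036, DPF1 from -0.22 to 0.24, DPF2 from -0.0075 to 0.10, KMT2C from -0.087 to 0.058, ARID1B from -0.065 to 0.045, BCL7A from -0.11 to 0.060, KMT2A from -0.061 to 0.059, KMT2B from -0.028 to 0.046, SS18L1 from -0.13 to 0.012 and SMARCC2 from -0.036 to 0.016.

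Deviations of same-numbered libraries from their group means had a correlation of -0.00072 over all genes tested. It was 0.035 over genes with a mean of at least 50 counts. A correlation over so many genes cannot exclude a pairing that touches some of them. The labels name no pairing, so the main model held the group alone. Under the replicate block the calls numbered 4061 over all genes, and 17 lower and 3 higher in the list. Genes just inside and outside the threshold, such as MEN1 (-0.18) and RBBP5 (-0.17), differed little in size.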

Other observations

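Other ATP-dependent remodellers were read from the same fit. Of 20, 5 were called lower (25.0%) and 1 higher, against 11.4% and 13.3% of all genes tested and 20.9% and 9.31% of abundant genes (mean count 500 or more). The remodellers called lower with the smallest p-values were CHD4, the ATPase of the NuRD complex, BAZ1B and BAZ1A, with log2 fold changes of -0.23, -0.20 and -0.23 (edgeR, adjusted p = 0.000753, 0.00326 and 0.0173). SMARCA1, an ISWI ATPase known from neurons, rose by 1.12 on the log2 scale (standard error 0.20; edgeR, adjusted p = 0.000755), from 3.82 and 6.06 CPM in mock to 12.1 and 9.95 CPM in JAZF1-SUZ12 libraries. Like SMARCD3 and DPF3, SMARCA1 was at a low level in mock. So was DPF1, at 8.71 and 10.3 CPM, which was not called (log2 fold change 0.018). Of 13 enzymes that remove methyl groups from lysine 4 or act on lysine 36 of histone H3, 1 was called higher and 0 lower. The share called higher was 7.69%, against 13.3% of all genes tested and 9.31% of abundant genes. Called lower were 11.4% of all genes tested and 20.9% of abundant genes. The enzyme called was KDM4B, a lysine 9 and 36 demethylase. KDM4B was at 102 and 113 CPM in mock and at 132 and 136 CPM in JAZF1-SUZ12 libraries. It rose by 0.30 (edgeR, adjusted p = 0.00113).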
